A study of Mus musculus with 12 samples.

Results

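The unannotated intergenic noncoding loci of the mouse hippocampus were the rows that the authors' tables type as novel_lincRNA, with a mean of at least 1 FPKM (fragments counted at a locus, scaled to its transcript length and to the size of the library) over 12 libraries. The rule found 1634 of the 3012 novel_lincRNA rows, in tables of 22306 loci. The floor of 1 FPKM was the same for all loci tested, of which there were 18387. The 12 libraries came from the hippocampus of C57BL/6 mice that got 10 µg siRNA (small interfering RNA) by the nose, with tissue taken 3 days after. There were 3 groups of 4 libraries. The siHdac4 group received siRNA against histone deacetylase 4, the siBdnf group siRNA against brain-derived neurotrophic factor, and the siScramble group a scrambled siRNA. The labels name the strain and neither the age nor the sex of the mice. They do not say that each library is its own animal, and p-values therefore cover only the variation among these libraries, which may be technical. The study set out to find targets that both siRNAs have in common in cognition, per its title. The tables give no read totals. The worth of 1 fragment was estimated from the most frequent ratio of low values to those of siScramble library 1. It was 0.955 to 1.30 in the 6 libraries where it could be resolved. The estimate is rough, as 51 to 114 of 5829 to 5992 loci per library had that ratio.

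Long intergenic noncoding RNAs are transcripts of RNA polymerase II that lie between protein-coding genes and have no long reading frame. Some act in the nucleus on chromatin or on the transcription of neighbouring genes, some are hosts of microRNAs or small nucleolar RNAs, and many have no known role. In the brain a large part of them is restricted to single cell types or regions. Assembly of reads into new loci also finds transcribed copies of other RNAs, read-through past the end of genes and transcripts that start backwards from a gene's promoter. The interval listed for a row gives its place, and several rows may share the same interval, in which case the position of a single row inside it is not known.

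The sequences below show what such intervals hold, and they were picked for 4 kinds of content described further on. The first kind is a promoter with a gene on one side and a novel_lincRNA locus reading away from it on the other. Both sequences run 5′ to 3′ along the gene's strand from 250 bases before its start to 50 after it, from RefSeq on GRCm38.p6, and capitals mark the bases that lie inside the listed interval of the novel_lincRNA locus.
Ndufa6 promoter beside XLOC_030814, chr15:82354242-82354541, minus strand: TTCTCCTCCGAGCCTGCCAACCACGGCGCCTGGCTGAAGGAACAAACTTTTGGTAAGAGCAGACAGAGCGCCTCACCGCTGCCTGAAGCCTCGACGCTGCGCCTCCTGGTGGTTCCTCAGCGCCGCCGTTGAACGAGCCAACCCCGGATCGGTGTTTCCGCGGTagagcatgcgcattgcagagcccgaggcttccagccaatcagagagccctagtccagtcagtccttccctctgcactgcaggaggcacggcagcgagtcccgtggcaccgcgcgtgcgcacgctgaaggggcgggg
Adgrb2 promoter beside XLOC_067443, chr4:129984620-129984919, plus strand: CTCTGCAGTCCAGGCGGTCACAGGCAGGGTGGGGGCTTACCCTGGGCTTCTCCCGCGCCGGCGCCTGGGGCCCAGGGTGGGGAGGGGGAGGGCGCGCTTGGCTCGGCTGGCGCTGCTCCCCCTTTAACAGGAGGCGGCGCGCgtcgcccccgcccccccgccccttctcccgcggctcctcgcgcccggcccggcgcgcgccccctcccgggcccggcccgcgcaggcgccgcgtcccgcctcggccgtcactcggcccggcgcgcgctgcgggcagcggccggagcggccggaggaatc
Ndufa6 encodes a subunit of mitochondrial complex I and Adgrb2 an adhesion receptor of the brain, named Bai2 in the tables. The Ndufa6 promoter has 164 bases inside the interval of XLOC_030814 and 27 CG dinucleotides. The Adgrb2 promoter has 142 bases inside the interval of XLOC_067443 and 45 CG dinucleotides.

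The second kind is a retrocopy, a processed pseudogene made by reverse transcription of a messenger RNA. The 4 stretches of exon below are from GENCODE M21 on GRCm38, all on the plus strand. For Gpx4-ps2 and Gm7065 they are the first 160 bases of exons of 777 and 400 bases. Capitals mark the bases that mismatch, or have no partner in, the transcript of the protein-coding gene.
XLOC_006909, Gm48068, copy of Rpl17, chr10:14587353-14587502: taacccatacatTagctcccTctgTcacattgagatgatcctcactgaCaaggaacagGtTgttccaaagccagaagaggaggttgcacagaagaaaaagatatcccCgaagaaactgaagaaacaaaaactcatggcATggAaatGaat
XLOC_075028, Rpl19-ps9, copy of Rpl19, chr6:71683771-71683885: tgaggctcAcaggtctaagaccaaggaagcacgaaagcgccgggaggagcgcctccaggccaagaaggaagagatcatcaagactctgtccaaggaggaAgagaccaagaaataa
XLOC_007348, Gpx4-ps2, copy of Gpx4, chr10:45875305-45875464: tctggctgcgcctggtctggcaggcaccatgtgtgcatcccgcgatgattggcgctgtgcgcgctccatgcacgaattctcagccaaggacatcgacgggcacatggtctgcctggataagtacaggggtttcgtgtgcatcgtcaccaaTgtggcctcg
XLOC_021712, Gm7065, copy of Rpl23a, chr13:64703158-64703317: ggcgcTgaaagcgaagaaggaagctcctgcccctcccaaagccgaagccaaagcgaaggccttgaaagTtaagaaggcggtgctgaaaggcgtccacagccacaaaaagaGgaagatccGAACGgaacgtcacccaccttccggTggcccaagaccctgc
Rpl17, Rpl19 and Rpl23a encode proteins of the large ribosomal subunit and Gpx4 an enzyme that reduces lipid peroxides. In the stretches printed, the Gpx4 copy differs from the Gpx4 transcript at 1 of 160 bases and the Rpl19 copy at 2 of 115. The Rpl17 copy is marked at 11 of 150 bases, and the Rpl23a copy has 4 mismatches and 5 bases without a partner in 160. Over the aligned part of the whole exon, the Gpx4 copy has 2 mismatches and the Rpl23a copy 14.

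The third kind is an interval that contains microRNA hairpins, which are cut from longer transcripts, or, for miR-99a-5p and miR-125b-5p, one that lies downstream of hairpins on the same strand and holds the locus called for siBdnf. Mature sequences are from RefSeq on GRCm38.p6 and the seed, bases 2 to 8, is in capitals.
miR-221-3p: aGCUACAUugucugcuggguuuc
miR-222-3p: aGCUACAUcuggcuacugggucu
let-7b-5p: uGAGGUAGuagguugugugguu
let-7c-5p: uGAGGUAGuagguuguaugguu
miR-344-5p: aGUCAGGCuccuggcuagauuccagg
miR-344b-5p: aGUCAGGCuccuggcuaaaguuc
miR-384-5p: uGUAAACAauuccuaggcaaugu
miR-99a-5p: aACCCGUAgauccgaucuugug
miR-125b-5p: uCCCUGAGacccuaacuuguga
The seed is shared by miR-221-3p and miR-222-3p, by let-7b-5p and let-7c-5p, and by miR-344-5p and miR-344b-5p. The last kind is a known small RNA that the tables list only as novel_lincRNA. Bc1, a short cytoplasmic RNA of rodent neurons transcribed by RNA polymerase III and known to repress translation at dendrites, lies at chr7:144914470-144914637 on the plus strand, 2 bases inside XLOC_081666 (chr7:144914468-144914854). The sequence is the GENCODE M21 transcript.
Bc1: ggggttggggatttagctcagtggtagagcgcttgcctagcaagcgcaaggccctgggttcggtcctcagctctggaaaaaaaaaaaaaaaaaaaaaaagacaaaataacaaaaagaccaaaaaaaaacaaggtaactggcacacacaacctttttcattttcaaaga

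The targeted messengers did not pass a test between their groups. Hdac4 had 34.0, 48.2, 39.6 and 42.3 FPKM in siHdac4 and 45.9, 31.5, 40.6 and 38.6 FPKM in siScramble, with overlapping groups, and differed by 0.07 on the log2 scale (adjusted p = 0.863 in limma). Bdnf had 5.19, 4.84, 5.29 and 5.43 FPKM in siBdnf and 5.33, 5.51, 5.14 and 5.50 FPKM in siScramble, likewise with overlap, and differed by -0.04 on that scale (adjusted p = 0.906 in limma). Of 12 marker genes of hippocampal neurons, 11 had a row and all of these reached 1 FPKM, with sums of 653 to 764 FPKM in siHdac4, 699.7 to 857 FPKM in siBdnf and 479.6 to 736 FPKM in siScramble. Of 15 markers of choroid plexus and ependyma, 14 had a row and 13 of these reached 1 FPKM. Their sums were 82.1 to 152 FPKM in siHdac4, 89.8 to 183 FPKM in siBdnf and 95.4 to 2742 FPKM in siScramble, where Ttr, the transthyretin of the choroid plexus, stood at 809.7 FPKM in library 1 and 1977 FPKM in library 3. Calls in the comparisons with siScramble are therefore also given without these 2 libraries. The rise was not shared by the whole list. Foxj1, Dynlrb2, Rsph1 and Ccdc153 were lower in siScramble library 1 than in library 4, and Ccdc153 was also lower in library 3. The other listed markers with a row were higher in both libraries 1 and 3 than in libraries 2 and 4. In such bulk RNA, fewer cells of a type and less RNA per cell cannot be told apart.

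Of the 1634 loci, 903 were alone at their interval and 731 shared it with other rows, 572 of them with rows of another type and 267 with a protein-coding row. The loci stood at 1158 different intervals on 21 chromosomes and, for 12 of them, on unplaced scaffolds. Strand, read from the order of the identifiers, was plus for 744, minus for 866 and not known for 24. Intervals of loci that were alone had a median of 983 bases, against 264173 bases for shared intervals, and the whole range ran from 79 to 2869146 bases.

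Most of the loci were low. The median of the mean level was 2.73 FPKM with quartiles of 1.51 and 5.98 FPKM, and the range was 1.00 to 11156 FPKM. There were 508 loci at 5 FPKM or more, 227 at 10 or more and 53 at 100 or more. In single libraries the median locus lay between 2.49 and 2.63 FPKM in siHdac4, between 2.65 and 2.82 FPKM in siBdnf and between 2.42 and 2.75 FPKM in siScramble. For comparison, the median was 3.14 FPKM for 150 annotated lincRNA loci, 5.58 FPKM for 3343 intronic loci and 11.2 FPKM for 11061 protein-coding loci at the same floor. A level of 1 FPKM or more in every library was found at 1160 loci, and 24 loci were listed at 0 in some library.

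The shortest intervals had the highest levels. The 68 loci of up to 300 bases had a median of 62.0 FPKM, and 29 of them reached 100 FPKM. The 402 loci longer than that and of up to 1000 bases had a median of 3.38 FPKM, and the next 348, of up to 10000 bases, one of 1.51 FPKM. Beyond that the median was higher again, 2.20 FPKM for 200 loci of up to 100000 bases and 3.16 FPKM for the 616 longer ones. Loci alone at their interval had the same order over these last 3 classes, with 1.47, 2.25 and 3.38 FPKM. FPKM divides by transcript length and fragment counts are not given, so the part of length in these levels was not tested. In each library the 10 loci of highest mean held between 46.9% and 71.1% of the FPKM summed over all 1634.

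**Figure D1:**
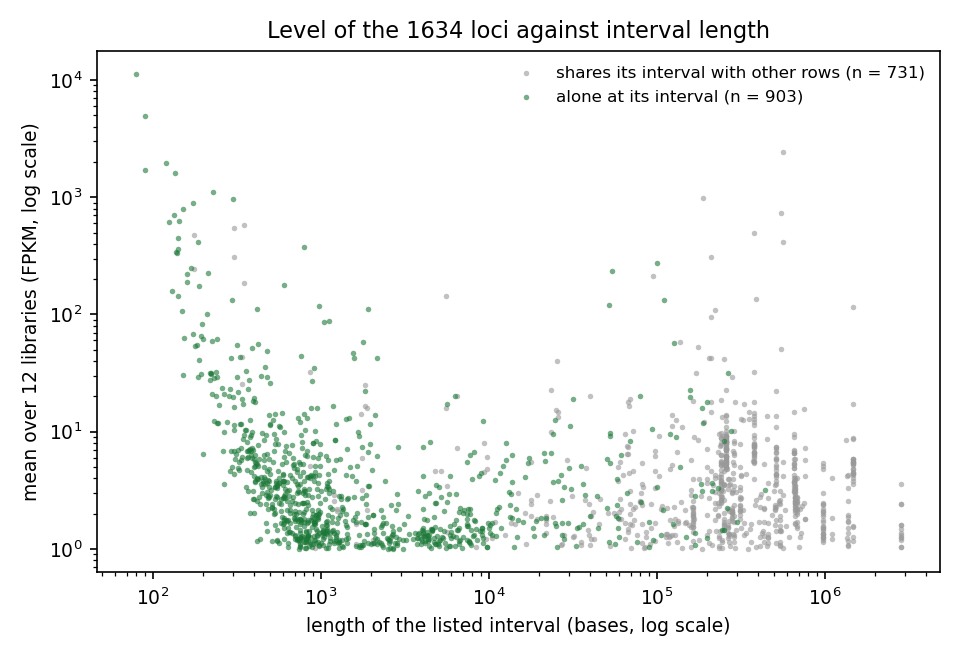
Mean FPKM over 12 libraries against the length of the listed interval in bases, both on log scales, with 1 point per locus. The loci of up to 300 bases lie highest, with a median of 62.0 FPKM, and the columns of grey points at long intervals are rows that share the same interval.

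The highest locus, XLOC_095934, was an interval of 79 bases on the X chromosome (chrX:38646745-38646824), 11622 bases from C1galt1c1, which encodes a chaperone of protein glycosylation. It had 9481, 24875, 23075 and 7234 FPKM in siHdac4, 6974, 4246, 7308 and 5346 FPKM in siBdnf, and 24096, 9123, 6853 and 5262 FPKM in siScramble. The groups overlapped, with siHdac4 libraries 2 and 3 and siScramble library 1 far above the others. XLOC_028552 (chr14:71982757-71982847), second in level with a mean of 4942 FPKM, stood 52998 bases from its nearest listed neighbour and ran from 2426 to 7065 FPKM. XLOC_098761, 90 bases at chrX:102200342-102200432 between the ribosomal protein gene Rps4x and the class I deacetylase gene Hdac8, had 4081, 5580.4, 2141 and 1807 FPKM in siHdac4, 1308, 1293, 275 and 584 FPKM in siBdnf, and 1559.7, 625, 812 and 511 FPKM in siScramble. Every siHdac4 library was above every other library at this locus. Its log2 fold change on the log2(FPKM + 1) scale was 1.94 ± 0.54 (SE) for siHdac4 over siScramble, which did not pass in limma (adjusted p = 0.37), while its FDR in the authors' deposited table was 0.0462.

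The spread between libraries of a group was wider than in other classes. The SD of log2(FPKM + 1) within groups had a median of 0.221 over the loci, with quartiles of 0.147 and 0.335, against 0.141 for protein-coding, 0.171 for annotated lincRNA and 0.192 for intronic loci. Within the range of mean level from 1.51 to 5.98 FPKM, the medians were 0.218 for the novel_lincRNA loci and 0.278 for those alone at their interval, against 0.191 for protein-coding, 0.200 for annotated lincRNA and 0.168 for intronic loci. The widest spread, 3.27, was at XLOC_100000 on the Y chromosome (chrY:9822716-9932926), listed at 0, 213, 46.4 and 336 FPKM in siHdac4, at 447, 85.5, 59.0 and 171 FPKM in siBdnf, and at 0, 146, 97.1 and 0 FPKM in siScramble. XLOC_081211, 151 bases within the GENCODE gene Gm6905 beside Rbbp6, had the second widest spread at 2.29 and ran from 0 to 101 FPKM, and XLOC_082720, in the interval of the small nucleolar RNA host Snhg14, the third widest at 1.96. At the floor, XLOC_052267, XLOC_004604 and XLOC_078727 were the lowest loci taken in, with a mean of 1.00 FPKM each. XLOC_007249, XLOC_097595 and XLOC_092346 were the highest left out, with means just under the floor, 0.999 FPKM for the last.

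By their listed intervals, most of the loci overlapped another locus or had one within 10 kb. Of the 1634, 732 overlapped another locus and 328 had one within 10 kb, which made 1060 (64.9%). Another 327 were 10 to 100 kb and 246 over 100 kb from any. As 731 loci share their interval with other rows, nearly all of the overlaps come from the shared listing. The place of a row inside such an interval is not known. Among loci without an overlap, most were more than 10 kb from the nearest. With protein-coding loci alone as neighbours, 268 overlapped one and 560 (34.3%) had one within 10 kb. In the 537 cases where a protein-coding locus within 10 kb was itself tested, that locus had the higher mean in 439, with a median ratio of neighbour to novel_lincRNA locus of 6.56. Where a locus overlapped more than 1 tested protein-coding locus, the one of highest mean was taken, which raises both values by construction. The log2 fold changes of the pairs were nearly unrelated across loci, with a Spearman rho of 0.080 for siHdac4 over siScramble, -0.022 for siBdnf over siScramble and 0.040 for siHdac4 over siBdnf, where the 537 pairs share 343 protein-coding loci and the same 12 libraries.

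Loci alone at their interval could be placed by strand beside the genes of GENCODE M21. Of the 903, 602 were over 10 kb from any protein-coding gene, 104 read away from a gene's start on the opposite strand within 10 kb, at a median gap of 460.5 bases, 59 lay downstream on the same strand, 44 ran towards a gene, 41 lay upstream on the same strand, 26 were inside or across one on the same strand, and 13 on the opposite strand. The smallest gap was 18 bases, from XLOC_062237 (chr4:49597951-49600649) to the row of Tmem246, a membrane protein of the secretory pathway. XLOC_023600 stood 20 bases from Spin1, a reader of histone methylation, XLOC_055195 24 bases from Cse1l, an exporter of importin-alpha, and XLOC_095310 41 bases from Sacm1l, a phosphoinositide phosphatase. XLOC_041081, 25 bases from the ubiquitin ligase subunit gene Fbxl17, was on the same strand, downstream of it.

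At the 57 pairs that read away from each other within 1 kb and whose gene was tested, the gene had the higher mean in 55, with a median ratio of 14.5. XLOC_030814, whose shared promoter is printed above, had a mean of 1.84 FPKM, against 76.0 FPKM for Ndufa6 at a gap of 75 bases between the rows. XLOC_067443 had 4.13 FPKM, against 48.3 FPKM for the row of Bai2. XLOC_046357 was an exception, with 5.29 FPKM, against 1.88 FPKM for Yif1a, a protein of transport between endoplasmic reticulum and Golgi. The Spearman rho of the log2 fold changes over these 57 pairs was 0.19, 0.044 and 0.066 in the order siHdac4 over siScramble, siBdnf over siScramble and siHdac4 over siBdnf. The 45 pairs with the locus downstream on the same strand had the gene higher in 44, a median ratio of 23.7, and rho values of -0.14, -0.006 and -0.16 in the same order.

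Promoters of the genes beside the 104 divergent loci held many CG dinucleotides. Of 102 such genes, 75 had a promoter in the RefSeq table, with 91 sequences of 300 bases and a median of 22 CG dinucleotides, against 7 over all 32851 promoters of the table. The letters GGGCGG, read on both strands, stood in 65.9% of them, against 35.7% of all. TATAAA stood in 9.89%, against 13.6% of all, and CCAAT in 31.9%, against 37.4% of all. These are counts of letters and do not show binding of any factor. The promoters compared with were taken whole, without regard to gene type or level in these libraries. The differences may therefore not be particular to genes beside divergent loci.

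A part of the loci coincided with genes of the later GENCODE M21 annotation. Of the 903 alone, 325 (36.0%) overlapped a GENCODE gene on the same strand, 38 had one on the opposite strand only, and 526 (58.3%) had none. The 325 were processed pseudogenes in 217 cases, long noncoding genes in 78, protein-coding genes in 22 and others in 8. A locus over genes of different kinds was counted once, as processed pseudogene first, then protein-coding, then long noncoding. The Bc1 locus and XLOC_096084 were picked for their known RNAs after their values were seen. The Bc1 locus, XLOC_081666, had 9.68, 10.6, 5.91 and 6.35 FPKM in siHdac4, 5.74, 3.12, 4.41 and 2.85 FPKM in siBdnf, and 8.40, 10.1, 4.46 and 4.18 FPKM in siScramble. Every siHdac4 library was above every siBdnf library, by 5.91 against 5.74 FPKM at the closest, as at 4.51% of all loci tested. The siScramble libraries overlapped both groups, and no comparison passed in limma (lowest adjusted p = 0.229). XLOC_096084 (chrX:61185862-61194004), inside the GENCODE gene C230004F18Rik and divergent from Cdr1, had a mean of 6.76 FPKM and a narrow range, from 5.80 to 8.38 FPKM over the 12 libraries.

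Among the 591 loci alone and of up to 2000 bases, 153 lay on exons of processed pseudogenes, and 151 of these aligned to a transcript of a protein-coding gene, with a median identity of 96.7% and a range of 88.0 to 100%. Ribosomal protein genes were the source of 29. Reads of such copies can be split with, or taken from, the nearly identical gene in ways the tables do not show, so their levels are uncertain. Where the protein-coding gene had a row, it was higher than the copy in 107 of 121, with a median ratio of 7.17. The Gpx4 copy, XLOC_007348, was the other way round, with a mean of 118 FPKM, against 28.3 FPKM for the Gpx4 row, and the Rpl19 copy, XLOC_075028, had 220 FPKM, against 12.1 FPKM for Rpl19. These are the copies that differ from their source at 1 and 2 bases in the sequences printed above.

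**Figure D2:**
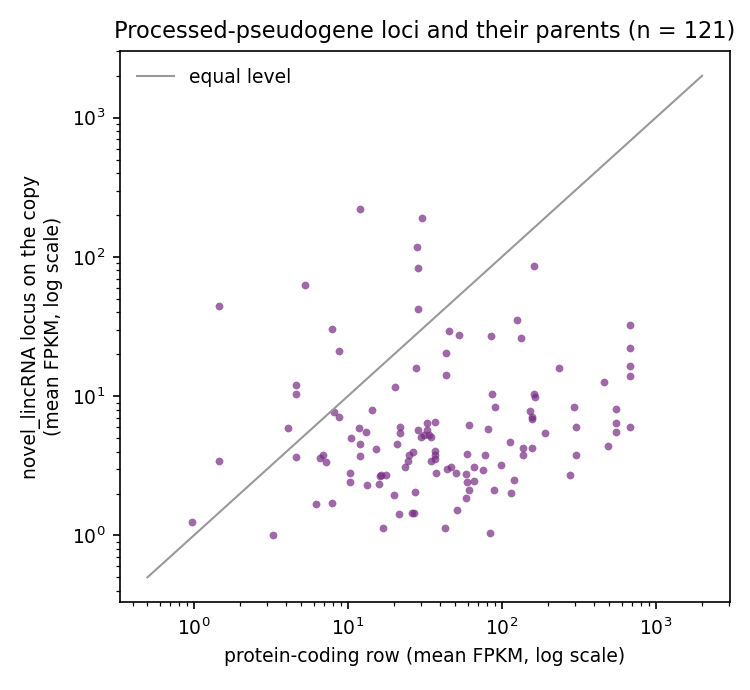
Mean FPKM of novel_lincRNA loci on processed pseudogenes (vertical) against the mean FPKM of the protein-coding row they were copied from (horizontal), both on log scales, for 121 pairs. The grey line marks equal levels, and 107 points lie below it.

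With all 12 libraries, none of the retrocopies passed in limma at an adjusted p of 0.05 in any comparison. Without siScramble library 1, 3 of the 151 passed for siHdac4 over siScramble, XLOC_021712, XLOC_009647 and XLOC_072592, in a fit that called 1.35% of all loci. XLOC_072592 also passed without siScramble libraries 1 and 3, where 0.43% of all loci were called. The log2 fold change was above 0 at 93 of 151 for siHdac4 over siScramble, at 58 for siBdnf over siScramble and at 106 for siHdac4 over siBdnf. These are to be read beside 47.5%, 56.4% and 42.9% of all loci tested that were above 0. The medians were 0.09, -0.07 and 0.11 in that order, against -0.01, 0.02 and -0.03 over all loci tested, and 17, 11 and 24 lay under an unadjusted p of 0.05. These are 11.3%, 7.28% and 15.9% of the retrocopies, close to the 10.1%, 8.85% and 15.6% of all loci tested. Across the 120 with a tested protein-coding row, the Spearman rho of the fold changes of copy and gene was 0.34, 0.12 and 0.20 in the same order.

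Shared intervals gathered many loci in long stretches. There were 16 intervals with at least 10 of the loci each, and together they held 340 (20.8%). The largest listed 54, all on the minus strand, at chr13:15767707-16028139 beside Inhba, a subunit of activin, with means from 4.84 to 22.6 FPKM. Others lay at chr5:51445204-52115689 with Ppargc1a, the coactivator of mitochondrial genes (29 loci), in 2 intervals of chromosome 16 over Rbfox1, a neuronal splicing factor (28 and 24), at chr7:59862160-61330925 over Snhg14 (28), and at chr12:34220599-34906866 over Hdac9, a class IIa deacetylase (13). How far loci of the same interval varied together across the 12 libraries differed between intervals. The median pairwise correlation per interval lay between 0.080 and 0.528, against 0.038 for loci on different chromosomes. It was low at an interval of chromosome 18 (0.080) and at the Hdac9 interval (0.096). These values describe pairs that share libraries and in part fragments.

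The median log2 fold change of siHdac4 over siBdnf was below 0 in all 16, between -0.28 and -0.01, against -0.03 over all loci tested. With the libraries scaled to equal medians it was below 0 in 13 and above 0 in 3, between -0.24 and 0.03. None of the 340 loci passed in limma in that comparison. At the Inhba interval the sum over the 54 loci was 383 ± 21.8 FPKM in siHdac4, 461 ± 54.9 FPKM in siBdnf and 414 ± 59.0 FPKM in siScramble (SD, n = 4 each). At the Ppargc1a interval the sums were 73.0 ± 4.17 FPKM in siHdac4, 89.2 ± 8.85 FPKM in siBdnf and 82.4 ± 7.999 FPKM in siScramble. At the Hdac9 interval they were nearly level, with 30.03 ± 1.62, 30.1 ± 0.658 and 30.2 ± 1.65 FPKM in siHdac4, siBdnf and siScramble. Intronic loci as a class had a median log2 fold change of -0.15 for siHdac4 over siBdnf and protein-coding loci one of -0.0016.

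**Figure D3:**
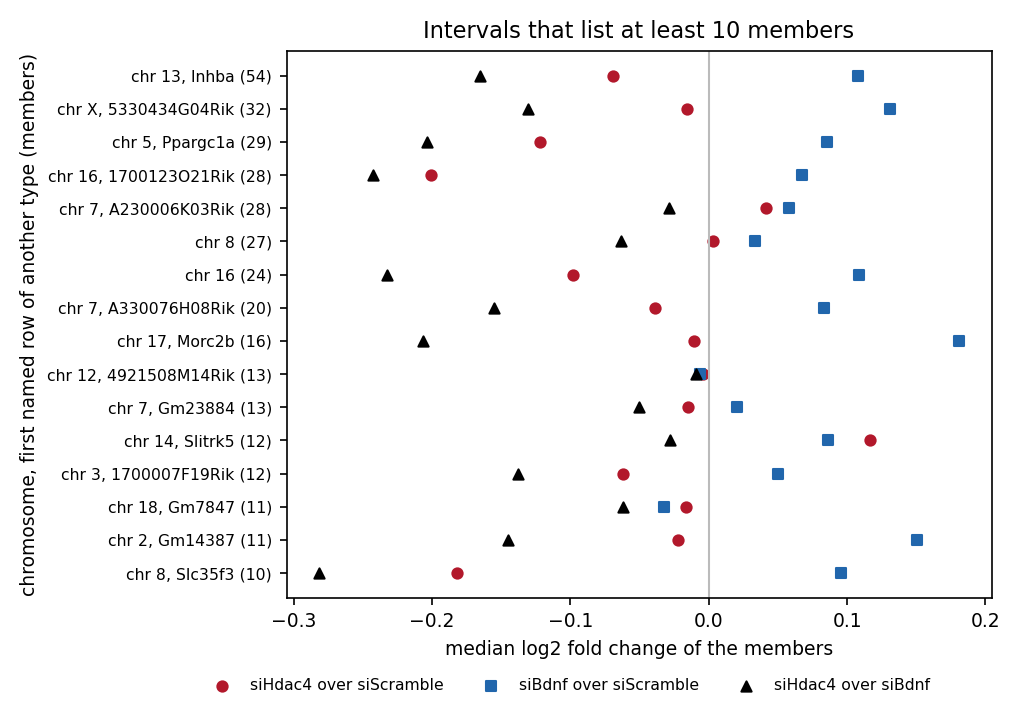
Median log2 fold change, on the log2(FPKM + 1) scale, of the novel_lincRNA loci in each of the 16 intervals that list at least 10, for siHdac4 over siScramble, siBdnf over siScramble and siHdac4 over siBdnf. The values of siHdac4 over siBdnf (triangles) lie between -0.28 and -0.01, left of 0 in all 16 as plotted and in 13 once libraries are scaled to equal medians.

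MicroRNA hairpins lay in 36 cases of 1005 inside the interval of one of the loci, and 29 of these had a locus on their own strand. At chr7:61695459-62209548, which holds 11 hairpins of the Mir344 family, 19 loci of the minus strand summed to 119 ± 7.18 FPKM in siHdac4, 153 ± 3.86 FPKM in siBdnf and 135 ± 23.6 FPKM in siScramble (SD, n = 4 each). The siHdac4 libraries ran from 110.3 to 128 FPKM and the siBdnf libraries from 147 to 156 FPKM without overlap, while siScramble spanned both, from 100.2 to 154 FPKM. Among all single loci tested, 8.45% were lower without overlap in siHdac4 over siBdnf. Of the 19, 6 lay under an unadjusted p of 0.05 for siHdac4 over siBdnf, where 15.6% of all loci tested did, and none passed (lowest adjusted p = 0.222 in limma). The interval of Mir384 and Mir325 on the X chromosome held 32 loci, with sums of 158 ± 9.62, 177 ± 7.95 and 159 ± 14.8 FPKM in siHdac4, siBdnf and siScramble. There too the siHdac4 libraries, at 146 to 167 FPKM, lay below the siBdnf libraries, at 171 to 189 FPKM, and siScramble overlapped both. The interval of Mir221 and Mir222 held 4 loci, with 19.6 ± 1.12, 22.4 ± 2.59 and 20.4 ± 2.62 FPKM in the same order. XLOC_030866, which spans let-7b and let-7c-2 (chr15:85671492-85708846), was low at 2.43 ± 0.206, 2.42 ± 0.283 and 2.98 ± 0.647 FPKM in siHdac4, siBdnf and siScramble. The libraries were selected for poly-A, so these values are of long transcripts and not of mature microRNAs.

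In siHdac4 over siScramble, 1 of the 1634 loci passed, at an adjusted p of 0.05 in limma, where 48 of all 18387 loci passed (0.261%), with 0.0218% higher and 0.239% lower. It was XLOC_092385, on the plus strand near the far end of chromosome 9 (chr9:124154857-124330758). It had 64.0, 78.2, 65.3 and 65.9 FPKM in siHdac4, 51.9, 53.5, 47.2 and 51.5 FPKM in siBdnf, and 42.1, 38.8, 43.6 and 33.8 FPKM in siScramble. The 3 groups did not overlap, with siBdnf between the others. The log2 fold change of siHdac4 over siScramble was 0.78 ± 0.09 (SE, n = 4 each; limma adjusted p = 0.000713), and the exact permutation test, two-sided, gave p = 0.0286, the smallest it can give for 4 against 4. Without siScramble libraries 1 and 3 the log2 fold change was 0.89 (limma adjusted p = 0.00136), and over all 23 alternatives the adjusted p ran from 0.000553 to 0.0295. For siBdnf over siScramble it was 0.36 ± 0.09 and for siHdac4 over siBdnf 0.41 ± 0.09, neither of which passed (limma adjusted p = 0.289 and 0.21). The authors' deposited table gave the siHdac4 difference an FDR of 0.591.

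XLOC_092385 shares its interval with the opposite-strand gene 2010315B03Rik, a zinc finger gene, whose protein-coding row XLOC_095331 had a mean of 40.9 FPKM. That row differed by -0.10 on the log2 scale in siHdac4 over siScramble (limma adjusted p = 0.547), and the intronic row XLOC_095334 by -0.34 (limma adjusted p = 0.49). The nearest rows outside the interval were a second 2010315B03Rik row 1381 bases away and an antisense row of Ppp2r3d, a phosphatase subunit gene, 91729 bases away. XLOC_092381, a locus alone at its interval on the same chromosome (chr9:123872821-123924624) and named after its values were seen, had 98.3, 144, 142 and 149.6 FPKM in siHdac4, 101, 148, 189 and 155 FPKM in siBdnf, and 96.2, 75.5, 80.9 and 77.6 FPKM in siScramble. Every siHdac4 and siBdnf library was above every siScramble library, by 98.3 against 96.2 FPKM at the closest. Its log2 fold changes were 0.67 ± 0.18 for siHdac4 and 0.81 ± 0.18 for siBdnf over siScramble, and neither passed (limma adjusted p = 0.35 and 0.227). Leaving out siBdnf library 1, the lowest of its group, gave 0.98 for siBdnf over siScramble at an adjusted p of 0.0208 in limma, in a fit that called 0.25% of all loci.

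**Figure D4:**
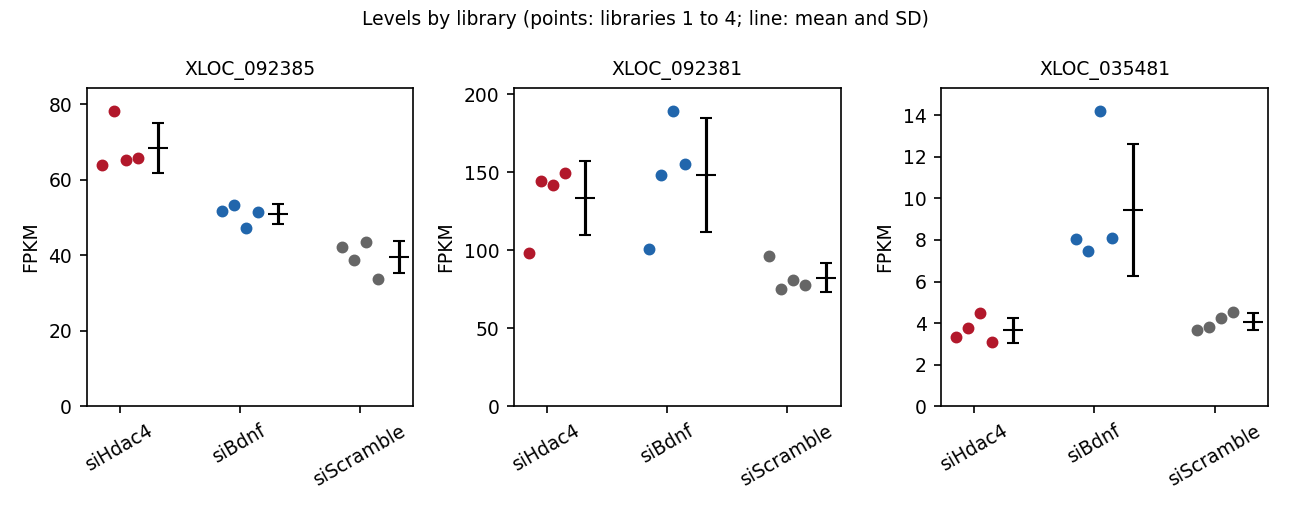
FPKM in each of the 12 libraries at XLOC_092385 and XLOC_092381 on chromosome 9 and XLOC_035481 on chromosome 16, with the mean and SD of each group of 4 beside the points. At XLOC_092385 the siHdac4 libraries (64.0 to 78.2 FPKM) lie above all others, and at XLOC_035481 the siBdnf libraries (7.47 to 14.2 FPKM) do.

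No other locus of that comparison passed. At an unadjusted p of 0.05, and with the called locus counted in, 62 were higher and 83 lower, together 145 (8.87%), against 10.1% of all loci tested (4.51% higher and 5.63% lower). Libraries of the groups did not overlap at 12 higher and 17 lower loci, against a background of 1.71% higher and 2.04% lower, which is 0.734% and 1.04% of the 1634. The median log2 fold change was -0.02, against -0.01 over all loci tested, and 738 (45.2%) were above 0, against 47.5%. XLOC_087661 (chr8:21638229-21638370), near the alpha-defensin gene Defa17, had the lowest value, -2.15 ± 1.21 (SE), and was listed at 91.6, 118, 0 and 64.8 FPKM in siHdac4 and at 76.4, 104, 187 and 182 FPKM in siScramble. The highest value, 1.97 ± 2.04, was at XLOC_100000, followed by XLOC_098761 with the 1.94 ± 0.54 given above. XLOC_082720 came next with 1.80 ± 1.22, and had 116, 88.8, 98.2 and 68.7 FPKM in siHdac4 and 32.2, 0, 87.5 and 169 FPKM in siScramble.

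The count rested on siScramble library 1. Without it, 20 loci passed in limma, 6 higher and 14 lower, where 248 of all loci passed (1.35%), without siScramble library 2 there were 3 (0.266% of all), and without siScramble libraries 1 and 3 there were 6 (0.43% of all). XLOC_092385 was among them each time. The 20 included XLOC_071654 in the Ppargc1a interval (-0.69, adjusted p = 0.0135), XLOC_049905 on chromosome 2 (adjusted p = 0.0168), XLOC_033567 on chromosome 16, whose profile follows that of an 18S ribosomal RNA row (-2.29, adjusted p = 0.0373), and XLOC_021712, the Rpl23a copy printed above (0.58, adjusted p = 0.0308). With all 12 libraries these had log2 fold changes of -0.55, -1.60, -1.78 and 0.47 and adjusted p values between 0.308 and 0.404 in limma.

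In siBdnf over siScramble, 1 of the loci passed in limma, where 51 of all 18387 passed (0.277%), with 0.0272% higher and 0.25% lower. It was XLOC_035481, on the plus strand of chromosome 16 (chr16:77682129-77841664), inside the GENCODE gene Mir99ahg, a host transcript of a microRNA cluster. It had 8.04, 7.47, 14.2 and 8.10 FPKM in siBdnf, 3.31, 3.78, 4.47 and 3.10 FPKM in siHdac4, and 3.67, 3.84, 4.26 and 4.54 FPKM in siScramble. All siBdnf libraries were above all others, and library 3 was far above the rest of its group. The log2 fold change of siBdnf over siScramble was 1.00 ± 0.17 (SE, n = 4 each; limma adjusted p = 0.0297), with an exact permutation p of 0.0286, the smallest possible, two-sided. The call was kept in 11 of 23 alternatives. It was lost when loci listed at 0 throughout a group were left out of the fit (adjusted p = 0.191), with the 2 groups alone (0.146), without siScramble libraries 1 and 3 (0.273), and in 8 of the 12 fits that leave out 1 library (0.0563 to 0.115 in limma), namely without siHdac4 library 1 or 2, siBdnf library 1 or 4, or any siScramble library, with the log2 fold change between 0.81 and 1.15 throughout. Its FDR in the authors' deposited table was 0.867.

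The other 3 rows of that interval, XLOC_035480, XLOC_035482 and XLOC_035484, were also novel_lincRNA loci on the plus strand and differed by 0.09, 0.06 and 0.07 in siBdnf over siScramble (limma adjusted p of 0.818 or more). The hairpins of miR-99a, let-7c-1 and miR-125b-2 lie on the same strand before the interval, with the mature miR-99a-5p ending 83168 bases and miR-125b-5p 35829 bases before it, and let-7c-5p 82436 bases before it. For siHdac4 over siBdnf, XLOC_035481 differed by -1.13 ± 0.17 and did not pass (limma adjusted p = 0.0828). Without siBdnf library 3 it differed by -0.94 and passed (adjusted p = 0.0264 in limma), in a fit that called 0.0163% of all loci.

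Over all 1634 loci in siBdnf over siScramble, the called one included, 79 were higher and 37 lower at an unadjusted p of 0.05, together 116 (7.10%), against 8.85% of all loci tested (5.72% higher and 3.13% lower). The groups did not overlap at 36 higher and 18 lower loci, 2.20% and 1.10% of the 1634, against 3.28% and 1.81% of all. The median log2 fold change was 0.04, against 0.02 over all loci, and 1001 (61.3%) were above 0, against 56.4%. The largest value, 3.69 ± 2.04 (SE), was at XLOC_100000 on the Y chromosome, whose libraries are given above. XLOC_053776 on chromosome 2 (chr2:100995837-101132750), with 2.04 ± 0.85, was listed at 7.80, 3.54, 3.99 and 30.3 FPKM in siBdnf and at 3.12, 4.28, 0 and 0 FPKM in siScramble. The lowest, -1.25 ± 0.55, was at XLOC_002000 (chr1:143204038-143235717), with 29.2, 8.02, 2.99 and 11.5 FPKM in siBdnf and 9.48, 42.0, 36.5 and 24.7 FPKM in siScramble. XLOC_045326 (chr19:3720923-3725726), downstream of 1810055G02Rik, was listed at 18.3 FPKM in siBdnf library 1 and at 0 in the other 11.

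In siHdac4 over siBdnf, none of the loci passed in limma, where 5 of all 18387 passed (0.0272%), 0.0163% higher and 0.0109% lower, while 295 (18.1%) lay under an unadjusted p of 0.05, against 15.6% of all. Of these 295, 90 were higher and 205 lower in siHdac4, against 5.14% and 10.4% of all. The groups did not overlap at 72 higher and 153 lower loci, 4.41% and 9.36% of the 1634, against 4.51% and 8.45% of all. The median log2 fold change was -0.06, against -0.03 over all loci, and 629 (38.5%) were above 0, against 42.9%. XLOC_059293 (chr3:62159062-62159366) had the lowest value, -3.14 ± 0.93 (SE, limma adjusted p = 0.226), with 80.3, 35.5, 79.1 and 243 FPKM in siHdac4 and 465, 1637, 525 and 871 FPKM in siBdnf. XLOC_003039 (chr1:7779607-7779950) had the highest, 2.33 ± 0.75 (limma adjusted p = 0.229), with 50.3, 49.1, 18.2 and 7.83 FPKM in siHdac4 and 3.96, 7.35, 4.44 and 2.04 FPKM in siBdnf. Fitted as 2 groups alone, 19 loci passed in limma, 8 higher and 11 lower, where 152 of all did (0.827%), and without siScramble library 1 there were 5 (0.125% of all). The 19 included XLOC_035481 and XLOC_092385, and 4 lower loci of the large shared intervals: XLOC_022995 beside Inhba (-0.82), XLOC_071654 over Ppargc1a (-0.64), XLOC_082994 with the Mir344 hairpins (-1.03) and XLOC_033686 over Rbfox1 (-0.62), at adjusted p values of 0.0442 to 0.0490 in limma. XLOC_046357, divergent from Yif1a, was higher by 0.77 (limma adjusted p = 0.0294 in the 2 groups alone and 0.212 with all 12 libraries). It had 7.19, 6.43, 6.25 and 5.77 FPKM in siHdac4, 3.59, 3.30, 2.81 and 3.67 FPKM in siBdnf, and 9.33, 6.65, 4.98 and 3.52 FPKM in siScramble. The siHdac4 and siBdnf libraries did not overlap, and siScramble ran across the gap between them.

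A set of loci followed the row of an 18S ribosomal RNA copy, an observation made after their values were seen. The row XLOC_040772 (chr17:39842996-39848853), which spans the 18S ribosomal RNA copy Rn18s-rs5 of RefSeq, had 353, 326, 360.2 and 469 FPKM in siHdac4, 756, 3480.2, 1014 and 1588 FPKM in siBdnf, and 275, 517, 3106 and 1521 FPKM in siScramble. Across the 12 libraries 24 of the loci (1.47%) correlated with it at 0.9 or more in log2(FPKM + 1), against 55 of 16752 loci of other types (0.328%). They lay on 15 chromosomes, 17 were alone at their interval, 21 had up to 1000 bases, and their means ran from 4.21 to 1965 FPKM. Summed, they had 3237, 1644, 2922 and 4641 FPKM in siHdac4, 5473, 20653, 8293 and 11866 FPKM in siBdnf, and 1780, 4995, 27186 and 11629 FPKM in siScramble.

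**Figure D5:**
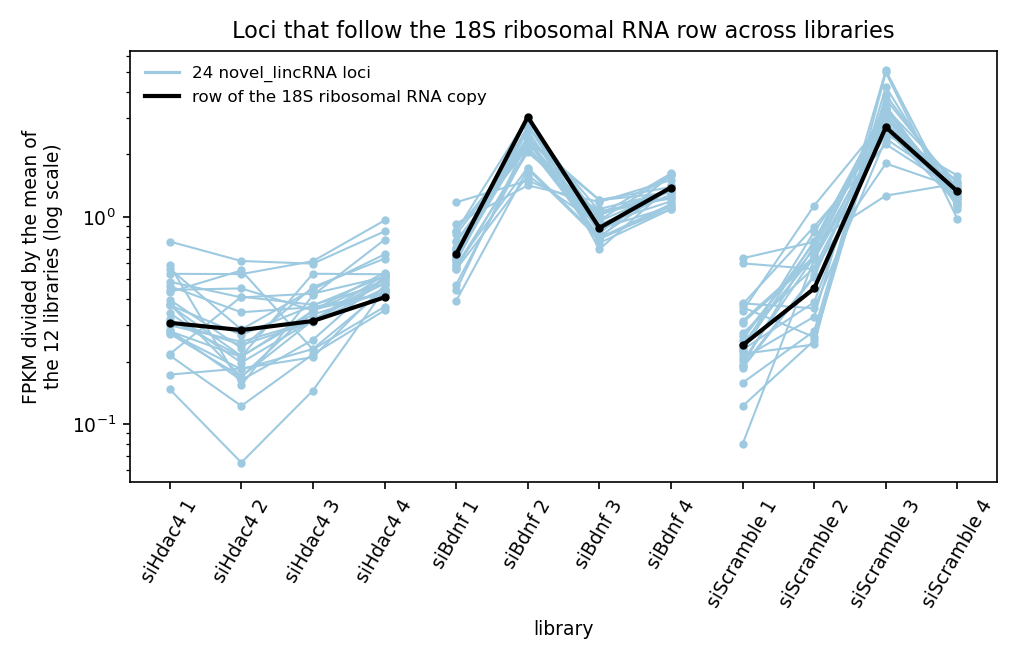
FPKM of 24 novel_lincRNA loci (blue) and of the row with the 18S ribosomal RNA copy (black) in each library, divided by each row's mean over the 12 libraries, on a log scale. The row stands at 3480.2 FPKM in siBdnf library 2 and 3106 FPKM in siScramble library 3 and at 326 to 469 FPKM in siHdac4, and the 24 loci follow it.

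Their median log2 fold change was -1.23 for siHdac4 over siScramble, 0.34 for siBdnf over siScramble and -1.65 for siHdac4 over siBdnf. All 24 were below 0 in both comparisons of siHdac4 and 23 above 0 in siBdnf over siScramble. These are descriptions of loci chosen by their profile, with no test, and the part of ribosomal RNA in the comparisons was not tested. XLOC_095860 on the X chromosome (chrX:21680472-21680771) had 208, 118, 210.2 and 342 FPKM in siHdac4, 601, 2529, 759.7 and 1582 FPKM in siBdnf, and 118, 245, 3580.5 and 1331 FPKM in siScramble. XLOC_047213, XLOC_074603, XLOC_057117 and XLOC_059293, among the loci named for level or fold change, were of this set. In 18 of the 24 the highest library was siScramble 3. The called loci were not of it: their correlations with the 18S row were -0.41 for XLOC_092385 and 0.48 for XLOC_035481.

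The authors' deposited table, which tests each comparison with siScramble by another method, gave 38 of the loci (2.33%) an FDR below 0.05 for siHdac4, against 1.11% of all 18387, and 20 (1.22%) for siBdnf, against 0.691%. For siHdac4, 6 were higher and 32 lower, 30 had up to 1000 bases, and 21 of the 38 were loci that follow the 18S row. For siBdnf, 3 were higher and 17 lower, and 1 of the 20 followed it. The same shares among all loci that the authors' table calls were not counted, so these counts cannot be set against a background. At some of these loci 1 library stood far above the rest. XLOC_018527 had 58.5 FPKM in siHdac4 library 2, against 0.775 to 2.50 FPKM in the other libraries. XLOC_030642 had 84.4 FPKM in siBdnf library 3, against 4.38 to 8.91 FPKM. How many calls are of this kind was not counted. Both comparisons share the siScramble libraries. XLOC_003039, with an FDR of 0.00739 in both authors' tables, was given log2 fold changes of 1.00 for siHdac4 and -1.82 for siBdnf there. Its siScramble values were 49.1, 4.69, 4.52 and 4.56 FPKM, with library 1 far above the other 3. Neither locus called by limma had an authors' FDR below 0.05.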

How the data were processed

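TRIzol extraction, selection for poly-A and directional library preparation are given per the labels' protocols. Alignment and assembly tools were TopHat2 2.0.9, Cufflinks and Cuffdiff, per the submitters' processing notes. The sources used here give neither the genome build nor the annotation. Both files hold FPKM values per locus and library, as the authors deposited them, with the authors' log2 fold changes, p-values and FDR for each siRNA against siScramble. The siScramble values of both tables were the same.

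The build was taken as GRCm38, since 98.7% of 11438 protein-coding loci overlapped the GENCODE M21 gene of their name. Strand was read from the order of the locus identifiers, which matched GENCODE for all of 11431 protein-coding loci. An interval can be shared by several rows, so gaps and neighbours are those of intervals. Retrocopies were aligned with BLAST 2.17.0.

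From the deposited FPKM values, log2(FPKM + 1) of the 18387 loci averaging 1 FPKM or more was fitted in limma 3.58.1 (R 4.3.3) with 3 groups in 1 fit and a mean-dependent prior, and p-values were adjusted by Benjamini-Hochberg over all of them. Fold changes on this scale understate those of low loci. A locus was called at an adjusted p below 0.05. The fit was also run on simulated data, with independent normal noise, a capped spread and changes added only at loci of higher level. That run does not cover changes at low loci or loci with an outlying library. Single called loci were also tested by an exact permutation over libraries (scipy 1.17.1). Tables and figures were made with Python 3.11.15, pandas 2.3.3, numpy 2.4.6 and matplotlib 3.10.9. Depth per library is not known from FPKM, so no counting interval is given.

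Loci were named by rule: the called ones, the extremes of fold change, level and spread, those next to the floor, those nearest to or overlapping a protein-coding locus, and those listed at 0 through a group. Others are said to be named after their values were seen. The loci and lists were chosen with earlier results of these data known. Alternatives were another pseudocount, filters and scaling, a replicate block, 2 groups alone, leaving out libraries, and another threshold.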

Additional observations from a re-analysis of the deposited data

Results flagged for a closer look

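Of 130 groups of 4 libraries at the 44 loci looked at, 14 groups at 13 loci held a library far from the other 3, with 12 standing high and 2 low. Chance flags about 5% of groups of normally distributed values. These loci were named in part for extreme spread, level or fold change, so the count cannot be set against that rate. At both called loci the outlying library lay on the side of the call. XLOC_092385 had 78.2 FPKM in siHdac4 library 2, against 64.0 to 65.9 FPKM in the other 3, and XLOC_035481 had 14.2 FPKM in siBdnf library 3, against 7.47 to 8.10 FPKM. XLOC_092381 stood low in siHdac4 library 1, with 98.3 FPKM, against 142 to 149.6 FPKM.

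In siHdac4, XLOC_082260 stood low in library 4 with 5.91 FPKM, against 10.4 to 10.97 FPKM. XLOC_050841 was listed at 3.54 FPKM in library 4 and XLOC_053776 at 6.83 FPKM in library 1, both with 0 in the other 3. In siBdnf, XLOC_082720 had 346 FPKM in library 4, against 122 to 138 FPKM, and XLOC_053776 had 30.3 FPKM in library 4, against 3.54 to 7.80 FPKM. XLOC_040067 had 347 FPKM in siBdnf library 2, against 291 to 298 FPKM, and XLOC_095310 had 1.97 FPKM in siBdnf library 1, against 1.19 to 1.32 FPKM. XLOC_045326 was listed at 18.3 FPKM in siBdnf library 1 and at 0 in the other 3.

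In siScramble, library 1 stood high at XLOC_003039 with 49.1 FPKM, against 4.52 to 4.69 FPKM, and at XLOC_036772, whose interval is that of Gap43, with 308 FPKM, against 40.6 to 79.5 FPKM. XLOC_079366 had 5.37 FPKM in siScramble library 2, against 1.98 to 2.47 FPKM.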

How the results depend on the processing

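XLOC_092385 kept its call in all 23 alternatives, and XLOC_035481 in 11 of 23. Leaving out 1 library at a time, 1 to 20 loci were called for siHdac4 over siScramble, 0 to 1 for siBdnf over siScramble and 0 to 5 for siHdac4 over siBdnf. The 20 and the 5 came without siScramble library 1, where 1.35% and 0.125% of all loci were called. Without siScramble libraries 1 and 3 there were 6 for siHdac4 over siScramble (0.43% of all loci were called) and 0 for siBdnf over siScramble. With 2 groups alone there were 0 for siBdnf over siScramble and 19 for siHdac4 over siBdnf (0.827% of all loci were called). At an adjusted p below 0.1 there were 2 for siHdac4 over siScramble, with XLOC_043426, and 1 for siHdac4 over siBdnf, XLOC_035481. The share of all loci at that threshold was not counted, so these counts cannot be set against a background. Leaving out loci listed at 0 through a group, or siScramble library 3 with siBdnf library 2 (chosen after seeing the data), left 0 for siBdnf over siScramble. The median log2 fold change of siHdac4 over siScramble ran from -0.05 to 0.02, and that of siHdac4 over siBdnf was -0.016 under median scaling. The median SD was 0.301 with a pseudocount of 0.1 FPKM. The median level was 4.10 FPKM over loci at 1 FPKM in every library. Only protein-coding neighbours left 560 loci within 10 kb. Apart from those made by the construction of the alternative, the cause was not tested.

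With the replicate number as a block, the counts were 1, 1 and 0, at an adjusted p of 0.00619 for XLOC_092385 and 0.0208 for XLOC_035481 in limma. The numbers did not pair the libraries: same-numbered libraries correlated at -0.08 to 0.24, over 0.1 in 4 of 12 pairs, and 2 of 12 libraries correlated best with their own number.

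FPKM without read totals limits what can be said of low loci, and 24 loci were listed at 0 in some library.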

Other observations

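XLOC_051402 (chr2:176835221-177398292), whose interval overlaps a protein-coding row, had 539, 386, 475 and 523 FPKM in siHdac4, 466, 418, 412 and 516 FPKM in siBdnf, and 409, 258, 191 and 353 FPKM in siScramble. The siBdnf libraries lay above all of siScramble, while siHdac4 overlapped it. The log2 fold changes over siScramble were 0.71 for siHdac4 and 0.63 for siBdnf, and neither passed in limma (adjusted p = 0.377 and 0.449).

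Downstream of 2 receptor genes on the same strand, the locus stood far below the gene. XLOC_080310, 3354 bases past Grm5, a metabotropic glutamate receptor gene, had a mean of 1.62 FPKM, against 106 FPKM for the gene. XLOC_071832, 1201 bases past Gabra2, a GABA-A receptor subunit gene, had 2.34 FPKM, against 36.2 FPKM. XLOC_046394, 7445 bases past Pola2, a subunit of DNA polymerase alpha, was the other way round, with 18.3 FPKM, against 3.12 FPKM. These loci were named after their values were seen.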
